A study of Mus musculus with 4 samples.

Results

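The root-like cells of the adult stria vascularis (SV) are described here, chosen by the counts of Lgr5 and Epyc transcripts in cells and nuclei. The SV is the epithelium of the lateral wall of the cochlea that makes the endocochlear potential, and root cells lie next to it at its lower edge and send processes into the spiral ligament. A member was a barcode with at least 200 genes, Malat1 at 1% or more of its unique molecular identifiers (UMIs, at 3% or more in nuclei), at least 2 UMIs of Lgr5 and Epyc together, and under 0.2% of its UMIs from the marginal cell genes Lrp2, Kcnq1, Esrrb and Atp13a5. There were 62 members among 14387 barcodes, 12 of them cells and 50 nuclei. Since Lgr5 and Epyc chose the members, their levels are given as a description and were not tested. Kcnj16 and Ceacam16, the markers named with them, were in the fit and are counted among the calls of the lists that hold them, but as given markers their calls are not independent evidence.

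SV was taken from CBA/J mice at postnatal day 30, with no treatment and no difference in genotype, and tissue of several mice was pooled for each suspension. Whole cells were captured 3 times for scRNA-Seq, as captures 1 to 3, and nuclei once for snRNA-Seq. The captures held 2811309, 8113494 and 8340882 UMIs in cells and 22332501 UMIs in nuclei. The 3 captures of cells served as replicates, and the single capture of nuclei had none, so that values from nuclei carry exact 95% Poisson intervals for counting error and no p. The root-like cells were set beside 3 classes. Spindle-like barcodes had at least 2 UMIs of Slc26a4 and fewer than 2 of Lgr5 and Epyc, marginal-like barcodes had at least 0.2% and at least 3 UMIs of the 4 marginal genes, and the other barcodes were all the rest past the filters.

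Root cells are known as neighbours of spindle cells, and both carry pendrin, the anion exchanger encoded by Slc26a4 that moves bicarbonate into the endolymph. Lgr5 is a receptor for R-spondins, which amplify Wnt signals, and is known from epithelial progenitor cells of many organs. Epyc encodes epiphycan, a small leucine-rich proteoglycan of the inner ear matrix. Kcnj16 encodes the inward rectifier Kir5.1, which pairs with the Kir4.1 channel of Kcnj10, and Ceacam16 encodes a secreted glycoprotein of the tectorial membrane.

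Promoters of 3 genes on which the comparisons turn are shown first. Epyc was the gene that brought most members in, Prss36 had the largest number of UMIs in the root-like nuclei of the genes named by rule, and Anxa1 was at 0 in the root-like cells and high in the spindle-like cells. The windows run from 250 bases before to 50 after the start in RefSeq (GRCm38.p6), at chr10:97643818-97644117 on the + strand for Epyc, chr7:127946676-127946975 on the - strand for Prss36 and chr19:20390622-20390921 on the - strand for Anxa1. Because Gata3 and Gata2 were higher in the root-like cells, the letters AGATAA were searched on both strands, and a match is in capitals, as TTATCT where it lies on the opposite strand.

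Epyc: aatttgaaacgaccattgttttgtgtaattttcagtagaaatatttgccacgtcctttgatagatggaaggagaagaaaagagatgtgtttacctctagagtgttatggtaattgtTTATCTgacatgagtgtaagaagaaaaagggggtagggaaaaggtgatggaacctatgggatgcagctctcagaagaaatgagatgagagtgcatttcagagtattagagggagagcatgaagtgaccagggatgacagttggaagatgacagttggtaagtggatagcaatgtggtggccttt

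Prss36: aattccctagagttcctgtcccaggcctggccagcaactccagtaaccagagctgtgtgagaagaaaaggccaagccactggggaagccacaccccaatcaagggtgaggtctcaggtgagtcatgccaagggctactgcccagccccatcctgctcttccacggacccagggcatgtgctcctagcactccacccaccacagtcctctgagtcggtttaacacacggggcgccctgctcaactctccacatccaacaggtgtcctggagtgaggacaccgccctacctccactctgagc

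Anxa1: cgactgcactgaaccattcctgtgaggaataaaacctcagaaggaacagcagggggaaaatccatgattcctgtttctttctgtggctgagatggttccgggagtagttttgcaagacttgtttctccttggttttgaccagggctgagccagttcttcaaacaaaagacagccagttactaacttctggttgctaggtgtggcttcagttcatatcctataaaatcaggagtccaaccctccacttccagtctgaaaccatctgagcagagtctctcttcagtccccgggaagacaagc

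The Epyc window held 1 match and the windows of Prss36 and Anxa1 held none, while 3672 of 32851 windows of this length (11.2%) held one. A window of Emb, a gene named further on, was also searched, is not shown and held 0 matches. Epyc has 2 starts in RefSeq, and the window of only 1 was searched. Such a match is a description of the letters and not of binding.

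Members were few in each suspension. Capture 1 held 2 of 166 barcodes past the filters (1.205%, exact binomial 95% interval 0.146 to 4.28%), capture 2 held 7 of 643 (1.09%, 0.439 to 2.23%) and capture 3 held 3 of 643 (0.467%, 0.0963 to 1.36%). The nuclei held 50 of 5987 (0.835%, 0.620 to 1.10%), and all 4 intervals overlapped. By comparison there were 0, 5, 4 and 30 spindle-like barcodes. No barcode of a member occurred in another library, and a doublet caller marked 0 of the 12 cells and 3 of the 50 nuclei.

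In cells a gap lay just above the limit of 2 UMIs, and in nuclei there was none. Of the 12 cells, 11 carried at least 13 UMIs of Epyc, and the remaining cell, in capture 2, carried 2 UMIs of Lgr5 and none of Epyc. No cell had 3, 4 or 5 UMIs of both genes together, and 4, 10 and 11 cells of the captures stayed outside with 1 UMI. Among the nuclei 12 had exactly 2 UMIs, 10 had 3, and 22 had 6 or more, whereas 54 nuclei stayed outside with 1. The lowest, median and highest number of Lgr5 and Epyc UMIs in the member nuclei was 2, 4.5 and 62.

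Epyc made up most of what chose the cells. In capture 1 the 2 cells had 278 and 34 Epyc UMIs, in capture 2 the 7 cells had 35, 35, 32, 0, 46, 29 and 27, and in capture 3 the 3 cells had 14, 13 and 18. Lgr5 was sparse, with 1 and 1 UMIs in capture 1, with 2, 0, 1, 2, 0, 0 and 0 in capture 2 and with 1, 5 and 0 in capture 3. Both genes were found in 6 of the 12 cells, counted as 2, 2 and 2 across the captures, and in 14 of the 50 nuclei, where 27 had Epyc alone and 9 had Lgr5 alone. As summed UMIs scaled to counts per 1000000 (CPM), Epyc stood at 8487, 4544 and 2549 CPM in the root-like cells and 3442 CPM in the nuclei, and Lgr5 at 54.4, 111 and 340 CPM and 579 CPM.

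The 2 markers that the rule did not use were found in part of the members. Kcnj16 stood at 408, 356 and 850 CPM in the root-like cells of captures 1 to 3, and at 2.10, 3.81 and 0.545 CPM in the other barcodes. Ceacam16 stood at 571, 356 and 1133 CPM, and at 2.80, 6.43 and 1.63 CPM in the other barcodes. For either gene the lowest root-like capture lay far above the highest capture of other barcodes. Per cell, however, Kcnj16 was found in 7 of 12 cells and Ceacam16 in 6 of 12, and 4 cells had neither.

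In the nuclei Kcnj16 was found in 21 of 50 members (42.0%, exact interval 28.2 to 56.8%), against 38 of 2448 other nuclei (1.55%), at a median depth of 1727.5 and 1477 UMIs. Ceacam16 was found in 17 of 50 (34.0%, 21.2 to 48.8%), against 62 of 2448 (2.53%), and 22 member nuclei had neither gene. Summed, Kcnj16 stood at 588 CPM (449 to 757) in the root-like nuclei and Ceacam16 at 1667 CPM (1426 to 1937). A single nucleus held 113 of the 170 Ceacam16 UMIs, and without it the ratio to the other nuclei fell from 13.7 to 4.70. By the number of Lgr5 and Epyc UMIs, Kcnj16 stood at 100 CPM in the 12 nuclei with exactly 2, 294 CPM in the 16 with 3 to 5 and 953 CPM in the 22 with 6 or more. It was found in 2, 5 and 14 of these nuclei, whose median depths were 1503.5, 1489.5 and 1997 UMIs. Prss36 stood at 4251, 4938 and 6478 CPM in them. Ceacam16 did not rise in this order, and its highest count in a nucleus of these groups was 7, 113 and 16 UMIs.

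**Figure D1:**
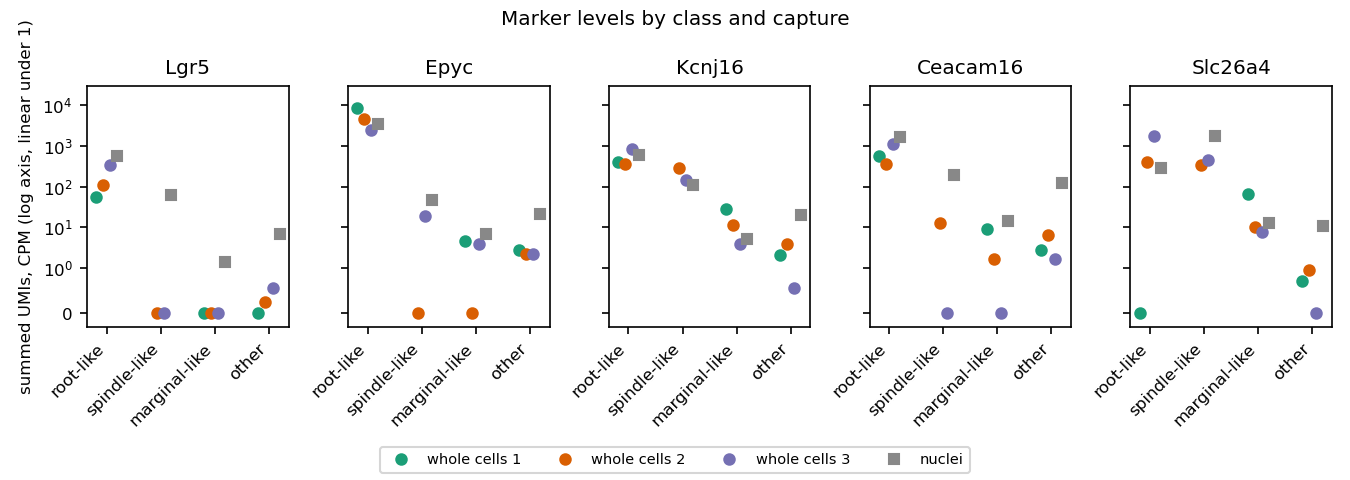
Levels of the 4 markers and of Slc26a4 as summed UMIs in CPM (vertical log axis, linear under 1) in each class (horizontal axis), with a circle per capture of whole cells and a square for nuclei. Kcnj16 and Ceacam16 lie at 356 CPM or above in every root-like sum, and Slc26a4 is at 0 in the root-like cells of capture 1.

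The label of root cells was checked against markers of other cell types. The organ of Corti holds supporting cells that are also known for Lgr5, and of its markers Prox1, Otoa, Hes5 and Pou4f3 were at 0 UMIs in both the root-like cells and the root-like nuclei, Fgfr3 was at 0 in the cells but had 2 UMIs in 1 nucleus, and Sox2 was at 0 in the nuclei but had 2 UMIs in 1 cell of capture 2. The other 2 genes of that list of 8 were S100a1, its most abundant gene and high in the members, and Slc1a3, at 27.2, 200.5 and 0 CPM. The list summed to 26604, 22119 and 17503 CPM in the root-like cells and 2212, 2414 and 2013 CPM in the other barcodes, nearly all of it S100a1, and the part of such cells in the results was not tested. Coch and Tbx18 of fibrocytes, all 7 endothelial and pericyte markers, and Cx3cr1 and Csf1r of macrophages were at 0 in the root-like cells. Other genes of these lists were found in them. Car3 of the fibrocyte list stood at 0, 156 and 736 CPM against 6.30, 20.9 and 18.2 CPM in the other barcodes (log2 fold change 3.58, edgeR adjusted p = 0.182), from 1 cell in each of captures 2 and 3, and at a ratio of 6.32 in nuclei. C1qb of macrophages had 1 UMI in capture 3, and in the root-like nuclei Coch had 4, Tbx18 and Flt1 2, Pecam1 3 and Cd68 1 UMIs. Anxa1, listed as shared by spindle and root cells, was at 0 in all 12 cells as well. The name root-like is therefore kept for cells that carry Lgr5 or Epyc, with Kcnj16 and Ceacam16 in part of them, and says no more than that.

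Members differed by Slc26a4. It was found in 0 of 2 cells in capture 1, 3 of 7 in capture 2 (42.9%), 2 of 3 in capture 3 (66.7%) and 10 of 50 nuclei (20.0%, exact interval 10.0 to 33.7%). In the other barcodes it was found in 0.671%, 0.691%, 0% and 1.96%, shares that are low by construction, since barcodes with at least 2 UMIs of Slc26a4 formed the spindle-like class. Thinned to 1000 UMIs per cell and 500 per nucleus, the shares among members came to 0%, 27.5%, 60.2% and 11.4%, and no member was left out. Per cell, Slc26a4 had 0 and 0 UMIs in capture 1, 0, 0, 3, 0, 4, 11 and 0 in capture 2 and 17, 15 and 0 in capture 3.

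Nuclei with Slc26a4 lacked the other 2 markers more often than not. Of the 10 nuclei with Slc26a4, 0 had Ceacam16, 2 had Kcnj16 and 8 had neither, while of the 40 nuclei without it 17 had Ceacam16, 19 had Kcnj16 and 14 had neither. The groups had a median depth of 1683 and 1727.5 UMIs. In the cells 3 of 5 with Slc26a4 had neither marker, against 1 of 7 without. In capture 3, however, the 2 cells with Slc26a4 carried 7 and 4 UMIs of Kcnj16 and 1 and 2 of Ceacam16, so that Slc26a4 and these markers were not found apart in every cell.

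**Figure D2:**
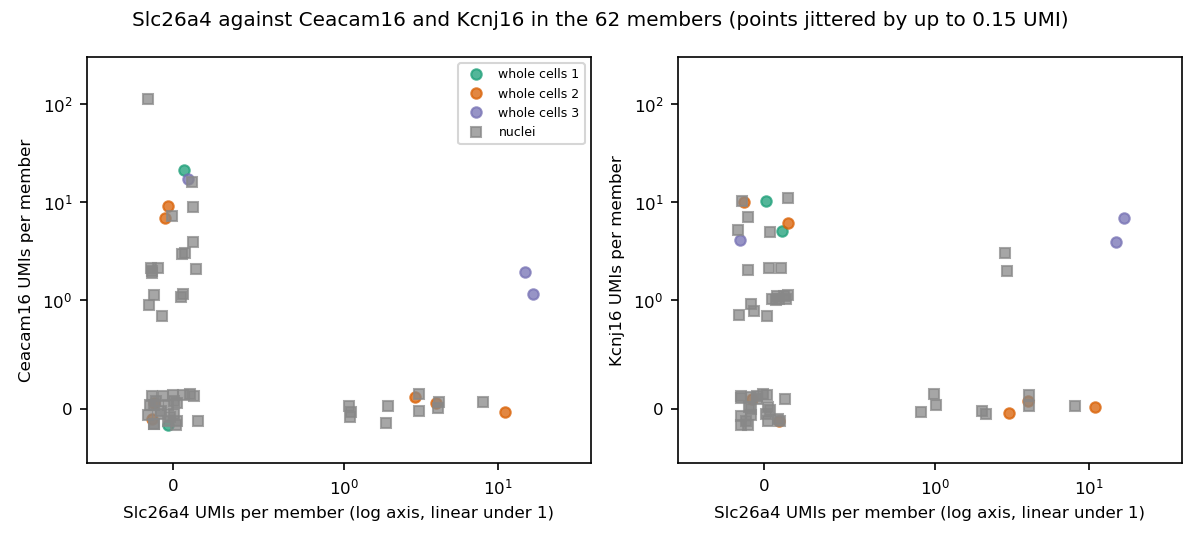
UMIs of Slc26a4 (horizontal log axis, linear under 1) against UMIs of Ceacam16 (left) and Kcnj16 (right) in each of the 62 members, circles for whole cells by capture and squares for nuclei, with points moved slightly at random so that they can be told apart. No nucleus lies off both axes for Ceacam16, while 2 cells of capture 3 have 15 and 17 UMIs of Slc26a4 together with a few UMIs of Ceacam16.

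The split by Slc26a4 ran through other genes of the nuclei. Prss36, which encodes a serine protease with several protease domains, stood at 945 CPM (577 to 1460) in the 10 nuclei with Slc26a4 and at 6793 CPM (6237 to 7386) in the 40 without. Gata3, a transcription factor of the developing ear, stood at 47.3 CPM (1 UMI) and 1138 CPM, and was found in 1 of 10 and 29 of 40 nuclei. Srgap1, a GTPase activator of Slit and Robo signalling, stood at 189 and 1646 CPM, and Tdrd12, a tudor domain protein of the piRNA pathway, at 47.3 and 705 CPM. Emb, Nat8l, Nr2f1, Bmp4 and Frzb had 0 UMIs in the nuclei with Slc26a4, with an upper limit of 174 CPM, and stood at 693, 656, 445, 544 and 334 CPM in the nuclei without. Of the 10 nuclei 1, with 33.6% of its UMIs from hemoglobin and marked as a doublet, held 6838 of their 21155 UMIs. Without it, a setting chosen after seeing the data, the upper limit was 258 CPM, above the lower bound of Frzb in the nuclei without Slc26a4 (220 CPM), and Prss36 stood at 1327 CPM. These genes were named for high values in sums to which the nuclei without Slc26a4 gave most UMIs, which favours this direction, so the values are a description.

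A second set ran the other way. Gpx2, a glutathione peroxidase, stood at 378 CPM (163 to 745) in the nuclei with Slc26a4 and at 61.9 CPM (20.1 to 144) in those without. Rspo2, a ligand of Lgr receptors, stood at 804 and 186 CPM, and Car12, a carbonic anhydrase, at 520 and 111 CPM. Hs3st1 at 236 and 260 CPM, Cldn14 at 189 and 111 CPM, Fxyd6 at 567 and 371 CPM and S100a1 at 3120 and 3935 CPM had overlapping intervals. A split of 10 and 40 nuclei from 1 library gives no test of these differences.

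Cells showed part of this split. In capture 2, the 3 cells with Slc26a4 and the 4 without stood at 0 and 554 CPM for Kcnj16, 0 and 554 CPM for Ceacam16, 0 and 658 CPM for Nr2f1 and 249.5 and 866 CPM for Prss36. Car12 ran from 1435 CPM with Slc26a4 to 104 CPM without, in the direction of the nuclei. Emb and Nat8l, at 0 in the nuclei with Slc26a4, were present in the cells with it, Emb at 249.5 CPM in capture 2 and 339 CPM in capture 3, and Nat8l at 686 and 475 CPM. S100a1 stood at 9108 CPM in the cells of capture 2 with Slc26a4 and 28963 CPM in those without, and at 16209 and 24063 CPM in capture 3.

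**Figure D3:**
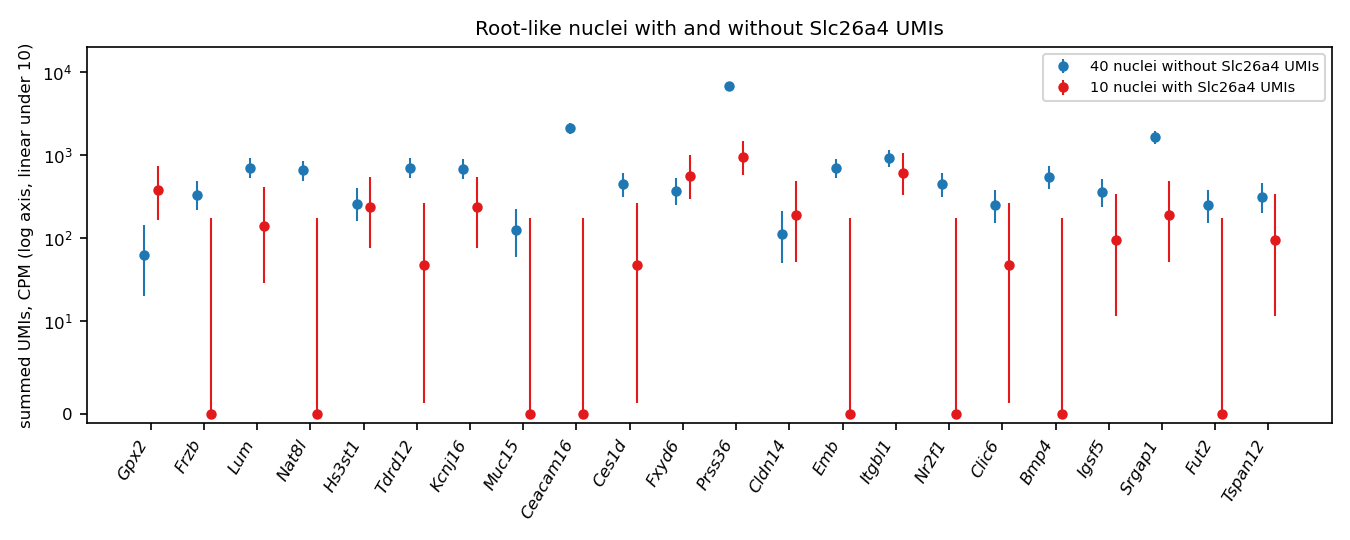
Summed UMIs in CPM (vertical log axis, linear under 10) of genes named by rule in the 40 root-like nuclei without Slc26a4 UMIs and the 10 with them, with exact 95% Poisson intervals for counting error. Ceacam16 stands at 2103 against 0 CPM and Prss36 at 6793 against 945 CPM, while Gpx2 and Cldn14 are no lower in the nuclei with Slc26a4.

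Against the other barcodes, root-like cells were higher in Gpx2, Frzb, Lum and Nat8l, and lower in genes of intermediate cells. The question was which genes distinguish root-like cells from the bulk of the SV preparation. UMIs were summed per capture and class, and root-like sums of 7 cells (44893 UMIs, capture 2) and 3 cells (17654 UMIs, capture 3) entered the fit, which had 10 sums and 4 residual degrees of freedom. The 2 cells of capture 1 (36761 UMIs) did not enter, and their values are given beside the others without a test. By the quasi-likelihood test of edgeR, adjusted by Benjamini-Hochberg, 270 of 5150 genes were higher (5.24%) and 533 lower (10.3%), with a median log2 fold change of -0.50 over all genes tested. Without TMM scaling 599 were higher and 246 lower, with a median of 0.18, so that the split depends on the scaling. Of the 533 lower genes, 212 had 0 UMIs in the root-like sums. Mitochondrial UMIs made up a median of 8.50%, 10.8% and 11.2% in the root-like cells and 27.3%, 28.6% and 32.8% in the other barcodes of the same captures, and the part of this in the comparison was not tested.

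Among the 15 genes named by rule, which include Kcnj16 and Ceacam16, Gpx2 had the largest fold change. It stood at 272, 980 and 10253 CPM in the root-like cells of captures 1 to 3 and at 1.399, 2.38 and 1.91 CPM in the other barcodes. The captures did not overlap, and the root-like cells spread widely among themselves, since 2 cells of capture 3 held 56 and 125 UMIs and 1 cell held none. The log2 fold change was 9.98 ± 0.41 (SE, n = 2 root-like sums against 3, edgeR adjusted p = 2.5e-14), and the CPM ratio in nuclei was 47.4. Each SE after ± was worked back from the fold change and the F statistic of edgeR, whose spread is shared by all classes. It does not show the spread between the root-like sums. The SE of DESeq2 was 0.83 for Gpx2, 4.41 for Lum, 4.57 for Frzb and 0.66 for Nat8l.

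Matrix and signalling genes came next. Lum, which encodes the small leucine-rich proteoglycan lumican, stood at 1986, 1247 and 850 CPM in the root-like cells and at 0, 1.67 and 2.72 CPM in the other barcodes, and was found in all 12 cells. Its log2 fold change was 8.17 ± 0.51 (edgeR adjusted p = 7.2e-20), although DESeq2 gave an adjusted p of 0.18. In nuclei it stood at 588 CPM (449 to 757) against 10.8 CPM. Frzb, a secreted Wnt antagonist, stood at 1605, 379 and 113 CPM against 0, 0 and 0.272 CPM (log2 fold change 9.43 ± 1.09, edgeR adjusted p = 5.6e-10; DESeq2 adjusted p = 0.108). One cell of capture 1 held 58 of the 59 Frzb UMIs there.

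Lum and Epyc lie together. Epyc (chr10:97644068-97682454, + strand), Kera (chr10:97606879-97613692), Lum (chr10:97565128-97572703) and Dcn (chr10:97479609-97518143) are neighbours on chromosome 10 of GRCm38 in GENCODE vM21, and all encode small leucine-rich proteoglycans. Kera had 0 UMIs in every class. In cells Dcn went the other way from Lum, at 0, 0 and 56.6 CPM in the root-like cells against 2.10, 121 and 115 CPM in the other barcodes (log2 fold change -3.54 ± 1.01, edgeR adjusted p = 0.0109). In nuclei Dcn had 7 UMIs at a ratio of 1.67. In cells it was not called by DESeq2, without TMM scaling or without capture 2.

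Enzymes, membrane proteins and a protease filled much of the rest. Nat8l, which makes N-acetylaspartate, stood at 1387, 512 and 623 CPM against 1.399, 1.43 and 0.817 CPM (log2 fold change 8.06 ± 0.69, edgeR adjusted p = 9.0e-15). Prss36 stood at 762, 646 and 793 CPM against 6.30, 6.43 and 4.36 CPM (6.26 ± 0.47, edgeR adjusted p = 3.1e-17). The root-like values of Prss36 lay close together, and in nuclei it was at 5580 CPM (5131 to 6058) against 117 CPM and found in 42 of 50 members. Tdrd12 stood at 816, 401 and 680 CPM against 0.699, 2.86 and 0.545 CPM (7.48 ± 0.70), Hs3st1, a heparan sulfate sulfotransferase, at 462, 579 and 793 CPM against 0.699, 1.90 and 1.36 CPM (7.81 ± 0.61), and Fxyd6, a regulator of the Na,K-ATPase, at 1741, 1604 and 3399 CPM against 2.10, 19.3 and 14.98 CPM (6.36 ± 0.42, edgeR adjusted p = 4.2e-07). In none of these did a root-like capture fall to the level of the other barcodes.

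Emb, an immunoglobulin-family partner of monocarboxylate transporters, stood at 326, 334 and 397 CPM against 0, 2.62 and 5.17 CPM (log2 fold change 5.93 ± 0.71, edgeR adjusted p = 1.6e-09), with no capture of other barcodes near the root-like ones. Cldn14, a claudin of tight junctions whose loss causes deafness, stood at 54.4, 134 and 340 CPM against 0.699, 0.714 and 2.72 CPM (6.25 ± 0.92). Muc15, Ces1d and Itgbl1 completed the named genes, and Itgbl1 was called on 5 UMIs in the 2 sums and not without capture 2. Gpx2, Muc15, Emb and Itgbl1, like Gata3, Ceacam16, Lgr5, Epyc and, further on, Bmp4, Nr2f1, Anxa1, Enpep, Rnf152, Tspan12, Syt4, Nrp2, Rapgef4 and Bmyc, overlap a gene on the opposite strand, and the sources used here do not give the strand setting of the counting, so their values could include reads of that gene.

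The transcription factors Gata3 and Gata2 were higher as well. Gata3 stood at 1061, 780 and 510 CPM in the root-like cells, 276, 155 and 230 CPM in marginal-like cells and 2.80, 12.1 and 8.99 CPM in the other barcodes. It was found in all 12 cells, in 30 of 50 nuclei and in 3.10% of other nuclei. Against the other barcodes its log2 fold change was 5.55 ± 0.60 (edgeR adjusted p = 2.5e-05) and in nuclei the ratio was 34.5. Gata2, a related factor, reached 5.66 ± 1.04. Of 10 otic transcription factors tested, 2 were higher and 0 lower, with a median log2 fold change of -0.50 beside -0.50 for all genes. In cells 5.24% of all genes were higher and 10.3% lower. In nuclei 4 of 12 were at a ratio of at least 2 and 2 at most 0.5, against 5.2% and 32.9% of all genes. Their median ratio in nuclei was 3.46, beside 0.935 for all genes. Pax8, Dlx5, Lmx1b and Prox1 were at 0 in both cells and nuclei.

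Epithelial genes were divided. Of 14 tested, Epcam, Cldn3, Cldn7, Cldn8, Cldn9 and Cldn14 were higher and Cdh1, the E-cadherin gene, was lower, with a median of 2.15. Among all genes tested 5.24% were higher and 10.3% lower. Epcam stood at 707, 624 and 227 CPM against 19.6, 22.4 and 18.8 CPM (log2 fold change 3.85 ± 0.43, edgeR adjusted p = 1.2e-10), and without capture 2 it was 2.16 and not called. Cdh1 stood at 109, 22.3 and 0 CPM against 239, 246 and 219 CPM (-4.49 ± 0.85), while in nuclei its ratio was 1.06. Cldn8 was at -4.70 when the 3 cells of capture 2 with Slc26a4 alone were used, and at 2.38 and not called when all 5 cells with it entered.

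Of the secreted matrix genes of the inner ear, 4 of 7 tested were higher and 1 lower, with a median of 3.31, and the higher ones were Lum, Col9a2, Col9a3 and the given marker Ceacam16. The shares over all genes tested were 5.24% higher and 10.3% lower. Col9a2, a chain of type IX collagen, stood at 163, 111 and 56.6 CPM against 6.30, 5.00 and 4.08 CPM (3.77 ± 1.08, edgeR adjusted p = 0.0101). Col9a3 was at 0 UMIs in the 4 cells of capture 2 without Slc26a4 (-6.40 in a fit of these alone) and at 3.12 when all 7 cells without it entered. Otog and Otogl, which encode the otogelins of acellular membranes, were too low for the test in cells and stood at 98.1 and 177 CPM in root-like nuclei against 6.50 and 8.96 CPM. Tecta, Otoa, Fmod, Otol1 and Oc90 were at 0 in both.

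Genes of the Wnt pathway, in which Lgr5 acts, were called in both directions. Of 12 genes tested, Rnf43, a ubiquitin ligase that removes Frizzled receptors, and Sfrp1, a secreted Wnt antagonist, were higher, and Dkk3, Wnt5a and Ctnnb1, the β-catenin gene, were lower, with a median of -1.25. For all genes tested the shares were 5.24% higher and 10.3% lower. Sfrp1 stood at 272, 646 and 0 CPM against 0, 2.14 and 0.817 CPM (log2 fold change 7.45 ± 0.97; DESeq2 adjusted p = 0.0856) and had 1 UMI in the root-like nuclei. Rnf43 stood at 27.2, 66.8 and 170 CPM against 5.60, 5.24 and 5.72 CPM (3.56 ± 1.00, edgeR adjusted p = 0.00882). Ctnnb1 stood at 81.6, 111 and 113 CPM against 1265, 1097 and 1024 CPM (-4.06 ± 0.59) and at a ratio of 0.249 in nuclei. DESeq2 did not call Wnt5a (DESeq2 adjusted p = 0.106). Lgr4 was at 27.2, 44.6 and 0 CPM against 11.9, 18.3 and 16.9 CPM and was not called, and Lgr6 had 2 UMIs in capture 2 and was not tested. Axin2, a target of the pathway, had 2 UMIs in 1 root-like cell of capture 1 and was at 0 in the root-like nuclei.

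In nuclei Rspo2 stood at 314 CPM (215 to 443) against 9.41 CPM in the other nuclei and 159 CPM in the spindle-like nuclei. Frzb, Bmp4 and Tspan12, a tetraspanin of Norrin and Frizzled signalling, were among the 10 genes with the largest ratios in nuclei, of those outside the rule with at least 20 UMIs. Over all genes, 714 of 13742 were called higher in root-like nuclei (5.2%) at a ratio of at least 2, and 4515 lower (32.9%) at a ratio of at most 0.5, each with 10 UMIs in the larger sum. Most of the lower calls rest on few UMIs in the 50 nuclei, and where at least 10 UMIs would be awaited 274 of 1395 genes were lower (19.6%).

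Among genes with at least 20 UMIs, and with the genes of the rule left out, the 10 largest ratios were those of Clic6 at 153, Frzb at 148, Nat8l at 110, Tdrd12 at 106, Bmp4 at 83.7, Igsf5 at 75.4, Srgap1 at 74.96, Fut2 at 62.5, Ces1d at 62.3 and Tspan12 at 56.3. Clic6, an intracellular chloride channel protein, stood at 206 CPM (127 to 315) in the nuclei and at 299, 44.6 and 56.6 CPM in the root-like cells, with 1 UMI among the other barcodes of the 3 captures. Bmp4, a secreted morphogen, stood at 431 CPM (314 to 579) in nuclei and at 245, 267 and 0 CPM in cells. Srgap1 stood at 1343 CPM (1128 to 1588) in nuclei but at 27.2, 89.1 and 0 CPM in cells, and Igsf5, a junctional protein, at 304 CPM against 27.2, 22.3 and 0 CPM. Fut2 encodes a fucosyltransferase.

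Genes of intermediate cells, the melanocyte-derived cells of the SV, were lower. All 8 tested of the 10 listed were lower, against 10.3% of all genes. Their median was -5.89, or -4.45 with genes at 0 placed at their bound. Dct, the most abundant of them in the root-like nuclei, stood at 190, 245 and 113 CPM in the root-like cells against 19617, 15182 and 12058 CPM in the other barcodes (log2 fold change -7.15 ± 0.87, edgeR adjusted p = 4.4e-05). In nuclei it stood at 2363 CPM (2074 to 2681) against 17365 CPM. Cd44 of the same list was not lower in nuclei, at a ratio of 1.84 on 26 UMIs. Of the 241 Dct UMIs in root-like nuclei, 3 nuclei held 82, 44 and 41. The list summed to 462, 557 and 397 CPM in the root-like cells against 25791, 20122 and 16982 CPM, and Tyrp1 and Pmel were at 0 in them and near 0 in the other barcodes too.

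The 5 genes named among those lower were Syt4, Nrp2, Glrb, Rapgef4 and Bmyc, each at 0 UMIs in the sums of captures 2 and 3. With the floor at 3 counts over those sums, Syt4, a synaptotagmin, was at least 16.8-fold lower than in the other barcodes, Nrp2, a semaphorin and VEGF co-receptor, at least 12.4-fold, and Glrb, the β subunit of the glycine receptor, at least 7.93-fold. Rapgef4 and Bmyc were at least 5.65-fold and 5.63-fold lower. In nuclei their ratios were 0.141, 0.161, 0.208, 0.0550 and 0.153.

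Several ion transport genes were lower. Of 10 tested genes of the Na,K-ATPase and the cation-chloride cotransporters, Fxyd6 and Slc12a7 were higher and Atp1b1, Atp1b3, Slc12a2, Fxyd1 and Fxyd3 were lower, with a median of -2.38. Among all genes tested the shares were 5.24% higher and 10.3% lower. Slc12a2, the cotransporter NKCC1, stood at 81.6, 156 and 113 CPM against 2140, 2127 and 2283 CPM (log2 fold change -4.69 ± 0.58, edgeR adjusted p = 2.7e-09). In nuclei its ratio was 0.468. Slc12a7 was 1.94 ± 0.68 and turned to -0.01 without the cell that had 2 UMIs. DESeq2 called neither Slc12a7 (DESeq2 adjusted p = 0.0525) nor Fxyd1 (DESeq2 adjusted p = 0.114).

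Of 7 potassium channel genes tested, Kcnj16 and Kcnk1 were higher and Kcnj10, Kcnj13, Kcne1 and Kcnn4 lower. DESeq2 did not call Kcne1 (DESeq2 adjusted p = 0.0740). Kcnj10, whose product pairs with that of Kcnj16, stood at 163, 178 and 227 CPM against 2460, 1762 and 1665 CPM (-4.01 ± 0.56, edgeR adjusted p = 1.0e-07). Of 11 genes of anion and acid-base transport, Car12 was higher (4.52 ± 0.39, edgeR adjusted p = 9.0e-15) and Car2 and Car14 lower. Both lists are to be read beside 5.24% of all genes higher and 10.3% lower. The gap junction genes Gjb2 and Gjb6, mutated in the most common inherited deafness, were not called, at 1197, 646 and 1586 CPM for Gjb2 against 1166, 1117 and 699.8 CPM (-0.37 ± 0.42, edgeR adjusted p = 0.587). In nuclei their ratios were 3.23 and 2.01, at 1000.3 CPM (816 to 1214) and 863 CPM (692 to 1063), and in the 10 nuclei with Slc26a4 either gene stood at 189 CPM.

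Genes of inherited deafness were found in both directions. Of 20 tested, 5 were higher, namely Cldn14, Gata3, Ildr1, Tmprss3 and the given marker Ceacam16, and 6 lower, namely Mitf, Pax3, Ednrb, Kcnj10, Kcne1 and Met, all of which but Kcne1 are known from melanocyte-derived cells. Shares over all genes in cells were 5.24% higher and 10.3% lower. In nuclei 16 of 31 were at a ratio of at least 2 and 7 at most 0.5, against 5.2% and 32.9% of all genes. Tmprss3, a serine protease, stood at 54.4, 245 and 0 CPM and Ildr1, a protein of tricellular junctions, at 109, 66.8 and 170 CPM. Without capture 2 Tmprss3 turned to -2.21, and Ildr1 was -4.90 in the 3 cells of capture 2 with Slc26a4 but 4.06 when all 5 cells with it entered. Kcne1 was not called by DESeq2 (DESeq2 adjusted p = 0.0740).

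S100a1, a calcium-binding protein abundant in supporting cells of the cochlea, stood highest in the root-like cells. It was at 26577, 21874 and 17503 CPM there, 5045 and 5704 CPM in spindle-like cells of captures 2 and 3, and 2191, 2355 and 1964 CPM in the other barcodes. The classes did not overlap, with a log2 fold change of 2.40 ± 0.38 against the other barcodes (edgeR adjusted p = 1.5e-06). In the 3 cells of capture 2 with Slc26a4, a single root-like sum, the change was 0.61, and with all 5 cells with Slc26a4 it was 1.31 and called. In nuclei it stood at 3766 CPM (3398 to 4162) against 1586 CPM, and without the nucleus that held 121 of 384 UMIs the ratio was 1.69.

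The counts of the remaining lists are to be read beside the shares over all genes, 5.24% higher and 10.3% lower. Of these lists, 1 of 14 immediate-early and heat-shock genes was higher, Hspa1a, and 1 lower, Klf6, and Hspa1a was high in capture 2 alone, at 0, 200.5 and 0 CPM. Of 4 cell cycle genes tested, 1 was lower, Ccnd2, and 0 were higher, with Mki67, Top2a and Cdk1 at 0 in the cells and at 2, 6 and 1 UMIs in the root-like nuclei (ratios of 4.38, 7.72 and 1.99). Of 4 genes of the Notch pathway, Heyl was higher at 190, 111 and 0 CPM and turned to -5.64 without capture 2. Of 3 gap junction and aquaporin genes, Aqp5 was higher at 163, 423 and 0 CPM and had 0 UMIs in the root-like nuclei. By edgeR's test 0 of 5 cation channel and purinergic genes, 0 of 4 fibrocyte markers and 0 of 1 endothelial, 1 macrophage and 1 B cell marker were called, and of these 12 genes only P2rx2 had an unadjusted p under 0.05 (0.00842; DESeq2 adjusted p = 0.00263). The fibrocyte list summed to 0, 223 and 793 CPM in the root-like cells and 74.8, 379 and 110 CPM in the other barcodes. Of 6 marginal markers 1 was higher and 2 lower, of 5 basal markers 2 were lower, of 3 markers of Reissner's membrane 1 was lower, of 2 Schwann cell and neuron markers 1 was lower, and the neutrophil marker S100a8 was lower. Of 4 hemoglobin genes 3 were lower in cells, and in the root-like nuclei a single nucleus with 33.6% of its UMIs from hemoglobin held 1142 of 1316 Hbb-bs UMIs. DESeq2 did not call S100a8 (DESeq2 adjusted p = 0.374), Hba-a2 (0.0858), Hbb-bs (0.101), Aqp5 (0.0903), Tjp1 of the basal list (0.0808) or Kcne1 of the marginal list (0.0740).

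Cells and nuclei were set side by side for these calls. Of the 270 genes higher in root-like cells, 108 were also at a ratio of at least 2 in nuclei, which is 15.1% of the 714 genes called there, and 10 were called the other way. Of the 533 lower genes, 260 (48.8%) were called lower in nuclei, which is 5.76% of the 4515, and 4 were called higher. Over all genes in nuclei, 5.2% were called higher and 32.9% lower, or 19.6% lower where at least 10 UMIs were awaited. The 2 suspensions differed in depth, in the RNA they sample and in the tissue that went into them, and these cannot be told apart here.

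**Figure D4:**
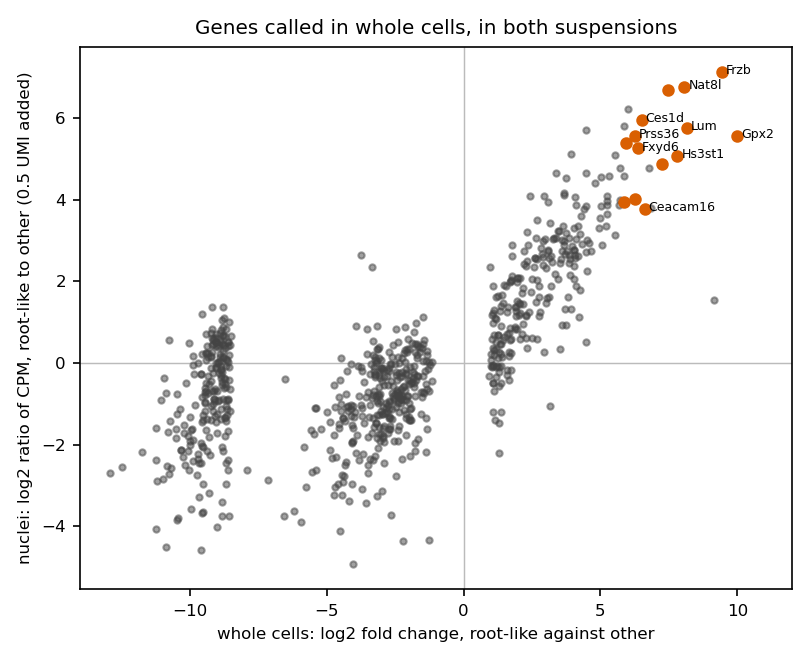
Log2 fold change in whole cells (horizontal axis) against the log2 ratio of CPM in nuclei (vertical axis, 0.5 UMI added to each sum) for 774 genes called in whole cells between root-like and other barcodes with at least 20 UMIs in both nuclear sums together, with genes named as higher in orange and genes at 0 UMIs in the root-like sums forming the group at the far left, where the fitted value is no measure of size. Of 247 genes higher in cells 221 lie above a log2 ratio of 0, and of 527 lower in cells 409 lie below it.

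Against spindle-like cells the question was what separates root-like cells from their nearest neighbours, which the study kept in a common group. The data gave 5 and 4 spindle-like cells, in captures 2 and 3, and 30 nuclei. By edgeR's test, 61 of 5150 genes were higher in root-like cells (1.18%) and 144 lower (2.8%), with a median of -0.47, and without TMM scaling 107 were higher and 99 lower. In nuclei 572 of 2152 genes were at a ratio of at least 2 (26.6%) and 218 at most 0.5 (10.1%). Slc26a4 chose the spindle-like cells and was left out. Mitochondrial UMIs made up a median of 21.5% and 11.4% in spindle-like cells (captures 2 and 3) and 9.61% in spindle-like nuclei, against 10.8%, 11.2% and 1.25% in the root-like barcodes, and their part was not tested.

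The 5 genes named as higher than in spindle-like cells were at 0 UMIs in the latter. Fxyd6 stood at 1604 and 3399 CPM in the root-like cells of captures 2 and 3, at least 92.4-fold higher at a floor of 3 counts over both spindle-like sums. Lum was at least 49.7-fold higher, Tdrd12 at least 21.0-fold, Nr2f1, an orphan nuclear receptor, at least 16.1-fold and Emb at least 15.4-fold. In the nuclei their ratios were 2.87, 12.3, 35.7, 22.1 and 34.4. DESeq2 did not call Lum, with an adjusted p of 0.26, and without capture 2 neither Emb nor Nr2f1 was called.

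The 5 genes named as lower were at 0 UMIs in the root-like sums of captures 2 and 3. Wfdc18, a small WAP domain protein, stood at 26014 and 35666 CPM in the spindle-like cells, so that it was at least 625-fold lower in the root-like cells, with an edgeR adjusted p of 0.0349 that 9 of the alternatives moved past 0.05. Anxa1, a phospholipid-binding annexin, stood at 6196 and 9444 CPM, at least 157-fold lower (edgeR adjusted p = 6.5e-14). Enpep, the aminopeptidase A of angiotensin metabolism, was at least 8.26-fold lower, Ptprz1, a receptor tyrosine phosphatase, at least 4.76-fold and Rnf152, a lysosomal ubiquitin ligase, at least 4.45-fold. In nuclei Wfdc18 stood at 78.5 CPM (33.9 to 155) against 6426 CPM, and Anxa1 at 108 CPM (53.8 to 193) against 1626 CPM, with 9 of its 11 UMIs in a single nucleus. Neither gene had a UMI in the 5 root-like cells with Slc26a4.

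**Figure D5:**
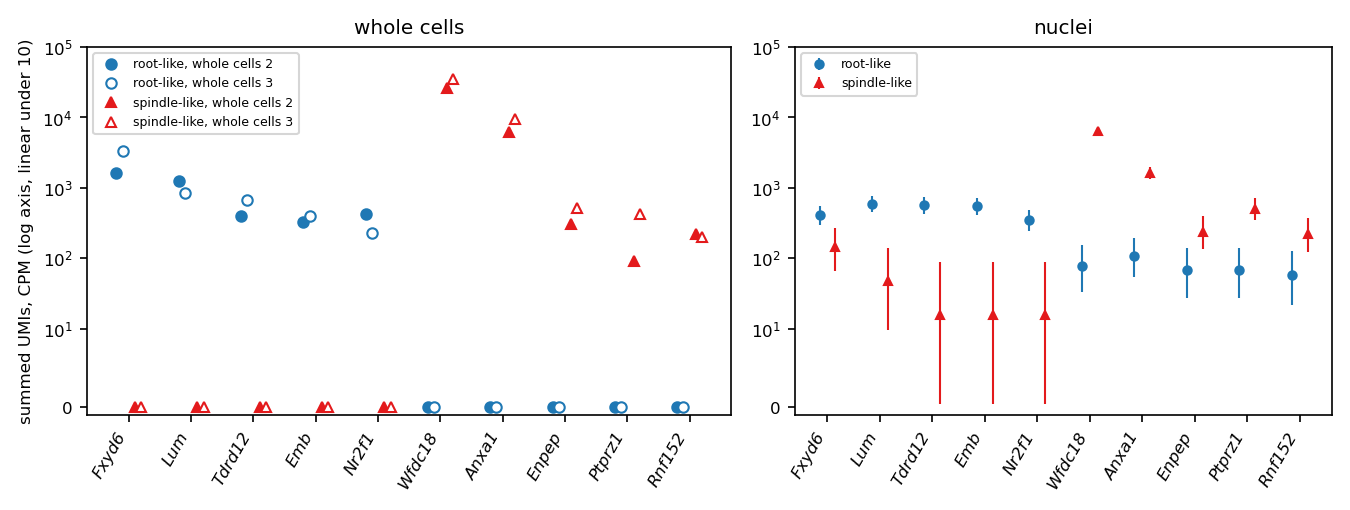
Summed UMIs in CPM (vertical log axis, linear under 10) of the 10 genes named by rule between root-like (circles) and spindle-like (triangles) barcodes, in whole cells of captures 2 and 3 (left) and in nuclei with exact 95% Poisson intervals (right). Fxyd6, Lum, Tdrd12, Emb and Nr2f1 are at 0 in spindle-like cells, and Wfdc18, Anxa1, Enpep, Ptprz1 and Rnf152 are at 0 in root-like cells.

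Several keratins and junction genes were lower than in spindle-like cells. Of 14 epithelial genes tested 0 were higher and 7 lower, namely Cdh1, Krt8, Krt18, Krt7, Cldn4, Cldn6 and Cldn9, with a median of -1.83. Against spindle-like cells 1.18% of all genes were higher and 2.8% lower. Krt18, a keratin of simple epithelia, stood at 66.8 and 0 CPM in the root-like cells against 1022 and 1574 CPM (log2 fold change -4.92 ± 0.53, edgeR adjusted p = 1.95e-10), and its partner Krt8 at 22.3 and 0 CPM against 660 and 870 CPM (-5.75 ± 0.73). In nuclei their ratios were 0.123 and 0.307, on 2 UMIs each in the root-like nuclei, while Krt7 was at 0.922, Cldn9 at 0.809 and Cdh1 at 0.680. Epcam did not pass, at -0.95 ± 0.37 (edgeR adjusted p = 0.129), nor did Cldn3 at -1.51 and Cldn7 at -1.59, while the claudin Cldn14 stood at 1.73 (edgeR adjusted p = 0.288).

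Of 9 tested genes of a list, drawn up with these data known, that are shared by spindle and root cells, Gpx2, Nat8l and Tdrd12 were higher and P2rx2, Anxa1 and Cldn6 lower than in spindle-like cells. All genes tested had shares of 1.18% higher and 2.8% lower. P2rx2, an ATP-gated channel, stood at 22.3 and 113 CPM against 272 and 611 CPM (-3.31 ± 0.76, edgeR adjusted p = 0.00349), and in nuclei at 186 CPM (112 to 291) against 128 CPM. Gpx2 stood at 980 and 10253 CPM against 25.9 and 37.0 CPM (6.70 ± 0.55), whereas in nuclei it was at 127 CPM (67.9 to 218) against 287 CPM (170 to 454). Kcnj16 stood at 356 and 850 CPM in the root-like cells and 285 and 148 CPM in the spindle-like cells, and at 588 and 112 CPM in the nuclei. Ceacam16 stood at 356 and 1133 CPM in the root-like cells against 12.9 and 0 CPM in the spindle-like cells, and at 1667 against 191 CPM in the nuclei, where the ratio fell to 2.98 without the nucleus that held most of its UMIs.

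Gata3 was 3.09 ± 0.75 higher than in spindle-like cells on the log2 scale (edgeR adjusted p = 0.0395), at 780 and 510 CPM against 38.8 and 111 CPM, and was not called without capture 2. S100a1 was 1.57 ± 0.40 higher (edgeR adjusted p = 0.0126), but at -0.15 in the 3 cells of capture 2 with Slc26a4 and at 0.50 and not called with all 5 such cells, which share that gene with the spindle-like class. Car12 was 2.45 ± 0.47 higher, at -0.06 in the 4 cells of capture 2 without Slc26a4 and at 0.60 and not called with all 7 such cells, and its ratio in nuclei was 0.535. Slc12a2 was lower, at -3.73 ± 0.60, while in nuclei its ratio was 0.968.

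Marginal-like cells, the endolymph-facing cells of the SV, were the last comparison. Of 5150 genes 270 were higher in root-like cells (5.24%) and 497 lower (9.65%), with a median of -0.56, and without TMM scaling 436 were higher and 305 lower. In nuclei 605 of 14198 genes were higher (4.26%) and 5164 lower (36.4%), and of 1645 genes with at least 10 UMIs awaited 412 (25.0%) were lower. Mitochondrial UMIs made up a median of 21.1%, 25.5% and 23.7% in marginal-like cells and 1.94% in marginal-like nuclei. The root-like barcodes had 8.50%, 10.8%, 11.2% and 1.25%, and the part of this in the comparison was not tested. Of 6 marginal markers that the rule did not use, 4 were lower, with Slc12a2 at 81.6, 156 and 113 CPM against 6685, 7646 and 9139 CPM and Kcne1, the partner of the channel Kcnq1, at 27.2, 22.3 and 0 CPM against 1559, 1290.3 and 1363 CPM (log2 fold change -6.82, edgeR adjusted p = 3.5e-10). Both classes were chosen by opposite limits on Lrp2, Kcnq1, Esrrb and Atp13a5. Markers found together with these genes are therefore lower in part by construction, and their calls are not independent evidence. Lum and Nat8l were at 0 in marginal-like cells of all 3 captures. Gata3 and Epcam did not pass, at 1.38 (edgeR adjusted p = 0.0737) and 0.06 (edgeR adjusted p = 0.93), and Car12 did not pass either, at 0.49 (edgeR adjusted p = 0.283).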

How the data were processed

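Counts of UMIs per gene and barcode were deposited by the authors, who made them with Cell Ranger 2.0.0 (submitters' processing notes) on mm10 from 10x Chromium libraries, and the deposited counts are not normalized. No cell annotation was used, and members and classes were rebuilt from the counts. The members and all gene lists were chosen with earlier results of these data known, and some listed genes are not reported here. Barcodes needed 200 genes and the Malat1 minimum, and intervals are exact and cover counting error only. Counts were summed per capture and class (at least 3 barcodes) and tested with edgeR 4.0.16 in R 4.3.3 (TMM, filterByExpr, quasi-likelihood F test, capture as a block, Benjamini-Hochberg adjustment, threshold 0.05), with the genes of the rule left out. The block rests on each capture being 1 suspension: between marginal-like and other sums, deviations of the same capture correlated at r = 0.12, 0.13 and 0.27 over 4518 genes. Between different captures r ran from -0.198 to 0.0951, the latter close to the lower same-capture values. Per the study's methods each capture of cells used its own pool of mice. With the block, p-values measure how far classes varied between captures after shifts common to a capture were removed. That spread was estimated with 4 residual degrees of freedom from the sums of all classes together, most of which were not root-like. Nuclei were compared by the CPM ratio (at least 2 or at most 0.5, with 10 UMIs in the larger sum). Named were the 4 given markers and the listed genes, up to 15 genes higher and 5 lower than in other barcodes and 5 in each direction against spindle-like cells, by the largest called log2 fold change with the same direction in every capture and in nuclei, and 10 genes by the nuclear ratio with at least 20 UMIs. Alternatives were DESeq2 1.42.0, other scaling, filters, member rules and leaving out captures. The scripts were tested on simulated sums for root-like against other barcodes, at a spread set for the simulation. There edgeR recovered 1 of 34, 13 of 33 and 33 of 33 genes raised 2-, 4- and 8-fold. Of genes lowered by the same folds it recovered 4 of 33, 5 of 34 and 15 of 33, and it called 0 of 3813 unchanged genes. A gene that was not called can therefore still differ. Positions are from GENCODE vM21 (GRCm38) and promoters from RefSeq.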

Additional observations from a re-analysis of the deposited data

Results flagged for a closer look

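Gpx2 stood on opposite sides of spindle-like barcodes in the 2 suspensions. Its CPM ratio of root-like to spindle-like nuclei was 0.444, whereas it was higher in the root-like cells of both captures, at 980 and 10253 CPM against 25.9 and 37.0 CPM. The difference between cells and nuclei was not tested. In capture 3 a single cell held 125 of the 181 Gpx2 UMIs.

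Barcodes with at least 2 UMIs of Lgr5 and Epyc were also found outside the rule. In nuclei, 10 had a share of marginal genes at or over the limit, and together held Kcnj16 at 855 CPM, Ceacam16 at 1115 CPM and Gata3 at 1227 CPM. A further 10 nuclei lay under the Malat1 minimum, with Kcnj16 at 1429.6 CPM and Ceacam16 at 415 CPM. In capture 3 of whole cells, 1 barcode under the Malat1 minimum had 5 UMIs of Lgr5 and Epyc and 12 of Slc26a4. By comparison, the 54 nuclei with 1 UMI of Lgr5 or Epyc held Kcnj16 at 152 CPM and Ceacam16 at 540.4 CPM.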

How the results depend on the processing

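The number of calls depended on the settings more than the direction of the named genes did, since of 111 results on single genes 70 lost their call under at least 1 alternative and 10 reversed. Counts in cells without or with Slc26a4, unless marked as at least 1 barcode, rest on 1 root-like sum, 4 or 3 cells of capture 2. A single root-like sum also remained with Malat1 at 2%, at least 5 barcodes, or without capture 2 or 3. Such counts cannot separate the setting from the loss of a root-like replicate. With at least 1 barcode, the 7 cells without Slc26a4 gave 268 higher and 782 lower genes against the other barcodes. Against the other barcodes, higher genes (270) came to 599 without TMM scaling, 120 with root-like and other sums only, 473 with sums of at least 1 barcode, 175 for members without Slc26a4 and 78 for members with it (139 with at least 1 barcode), and lower genes (533) to 275 with DESeq2, 246 without TMM scaling, 229 with those sums only, 293 with Malat1 at 2%, 233 without Slc26a4 and 269 with it. Against spindle-like cells, higher genes (61) came to 107 without TMM scaling, 97 and 158 with at least 1 and 5 barcodes, and 28 with Slc26a4 (39 with at least 1 barcode), and lower genes (144) to 302 with at least 1 barcode, 89 with marginal genes under 0.1% and 63 without Slc26a4 (232 with at least 1 barcode). Against marginal-like cells, higher genes (270) came to 436 without TMM scaling, 464 with at least 1 barcode, 175 without Slc26a4 and 85 with it (126 with at least 1 barcode), and lower genes (497) to 236 with DESeq2, 305 without TMM scaling, 863 with at least 1 barcode, 257 with Malat1 at 2%, 217 without Slc26a4 (782 with at least 1 barcode) and 260 with it.

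Leaving out each capture gave 110 to 302 higher and 293 to 445 lower genes against other, 25 to 182 and 98 to 167 against spindle-like, and 80 to 297 and 261 to 441 against marginal-like barcodes, and the lowest of each came without capture 2, which leaves 3 root-like cells in the fit. Without the replicate block there were 296 and 615, 67 and 172, and 297 and 609 calls, none moved by over 1.5 times. No paired analysis was possible for nuclei against whole cells because they came from separate suspensions, with 1 library of nuclei.

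In nuclei, at least 20 UMIs gave 327 higher genes against other, 209 higher and 81 lower against spindle-like and 294 higher against marginal-like nuclei. The 10 nuclei with Slc26a4 gave 123 and 8517, 65 and 334, and 118 and 9085 genes higher and lower, and where 10 UMIs were awaited 274 and 412 were lower than in other and marginal-like nuclei. With 1 UMI of Lgr5 or Epyc as the limit there were 6, 17 and 14 cells and 104 nuclei, and members with Slc26a4 were 0, 3 and 2 cells and 10 nuclei, leaving 4 and 1 cells without it in captures 2 and 3.

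Values reversed without capture 2 for Heyl (-5.64), Slc12a7 (-7.52), Tmprss3 (-2.21) and Hspa1a (-4.85), each of which had 0 UMIs in the root-like cells of capture 3. Without capture 3 these genes stood at 3.08, 2.57, 7.13 and 4.86. The 3 cells of capture 2 with Slc26a4 turned Cldn8 (-4.70), Slc12a7 (-7.53), Ildr1 (-4.90) and, against spindle-like cells, S100a1 (-0.15) and Hes1 (-6.70). With all 5 cells with Slc26a4 only Slc12a7 of these stayed reversed (-7.54), and the others stood at 2.38, 4.06, 0.50 and 1.94. The 4 cells of capture 2 without it turned Col9a3 (-6.40), Hspa1a (-5.03) and, against spindle-like cells, Car12 (-0.057), and with all 7 such cells Col9a3 stood at 3.12 and Car12 at 0.60, while Hspa1a gave no value. Malat1 at 2% turned Hspa1a (-4.53) and a limit of 3 UMIs turned Slc12a7 (-0.0087). Their causes were not tested. With 12 cells and 50 nuclei, a gene at 0 UMIs was not detected at this depth, which does not show that it was absent.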
